A study of Homo sapiens with 24 samples.

Results

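The genes described here are 9 targets of the transcription factor NRF2: NQO1, GCLM, GCLC, TXNRD1, SRXN1, AKR1C2, AKR1C3, OSGIN1 and PIR. They were chosen by name as antioxidant and detoxification genes, out of 19775 genes that the arrays measure with a probe set listed for 1 gene symbol. Each gene was read from the probe set with the highest mean over all arrays, and 7 of the 9 passed the filter on low values. AKR1C3 and OSGIN1 did not reach a log2 intensity of 4 on any array (0 arrays each), so no change could be measured for them. The samples are cultures of 2 human leukemia cell lines grown with the DOT1L inhibitor EPZ004777 at 3 uM or with the vehicle, 0.1% DMSO. MV4-11, a biphenotypic B myelomonocytic leukemia line with an MLL-AF4 rearrangement, was kept in IMDM medium, with samples from days 2, 4 and 6 of culture. The other line is MOLM-13, an acute myeloid leukemia line with an MLL-AF9 rearrangement that was kept in RPMI medium and sampled on day 6 only. Each of the 8 groups had 3 biological replicates, 1 array each. All cultures carry an MLL fusion and all were grown with fetal bovine serum. Each fusion is represented by 1 cell line.

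NRF2, the product of NFE2L2, is held at a low level by KEAP1, which presents it to a CUL3 ubiquitin ligase. Oxidants and electrophiles release NRF2 from KEAP1. It then binds antioxidant response elements together with a small MAF protein and raises genes for glutathione synthesis, thioredoxin reduction, quinone reduction and NADPH supply, while BACH1 competes for the same elements. DOT1L, the enzyme that EPZ004777 inhibits, places methyl groups on histone H3 within active genes, and MLL fusion proteins draw it to their targets. The comparisons below ask how the 9 target genes differ between inhibitor and vehicle cultures over time and in each line.

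The core of the antioxidant response element, TGACNNNGC, was searched on both strands of the RefSeq promoter windows of GRCh38.p14, which run from 250 bases before to 50 bases after a gene's start. All 9 genes had a window, 11 in all, because AKR1C3 and TXNRD1 have more than 1. The letters occurred in 4 of these 11 windows and in 13.3% of all 35116 windows. All matches are shown, and they lie in GCLM, TXNRD1 and PIR. The capitals mark the 9 matching bases, and each stretch is written 5′ to 3′ on the strand that holds the match.
GCLM, chr1:93909446-93909474, plus strand, match 26 bases before the start: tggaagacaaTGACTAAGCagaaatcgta
TXNRD1, chr12:104215670-104215698, plus strand, match 91 bases before the start: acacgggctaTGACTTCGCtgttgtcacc
TXNRD1, chr12:104215761-104215789, minus strand, match spanning the start: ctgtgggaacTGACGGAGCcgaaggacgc
TXNRD1, chr12:104286920-104286948, minus strand, match 94 bases before a second start: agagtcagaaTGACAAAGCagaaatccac
PIR, chrX:15493289-15493317, plus strand, match from base 27 after the start: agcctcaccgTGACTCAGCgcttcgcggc
A match is a description of these letters and not a measured binding site. For NQO1, GCLC, SRXN1, AKR1C2, AKR1C3 and OSGIN1 the letters were not in the window searched. By the same annotation, GCLM lies at chr1:93885199-93909430, TXNRD1 at chr12:104215779-104350307, PIR at chrX:15384799-15493333, NQO1 at chr16:69709401-69726560 and GCLC at chr6:53497341-53545101. SRXN1 lies at chr20:646615-653200 and OSGIN1 at chr16:83953240-83966332. AKR1C2 at chr10:4987775-5018000 and AKR1C3 at chr10:5048781-5107686 are neighbours in a family of close copies.

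Levels are log2 intensities of the deposited values, and errors are SD over 3 arrays unless called SE. The lowest value that any probe set takes is 2.19, and a level near it is a bound set by the background adjustment and not a measured amount. Intensities of different genes come from different probes and are not compared with each other. Most measured markers fitted a myeloid lineage. Of 9 myeloid and leukocyte markers, 8 were at 4 or more on every array, all but ANPEP. Of 14 markers of other cell types, 11 were below 4 on every array. They include the B cell marker MS4A1, although MV4-11 is described as a biphenotypic B myelomonocytic line. The others were COL1A1, with group means of 7.03 to 7.72, APOA1 (4.42 to 4.74) and CD3D. CD3D was at 8.12 in treated and 5.38 in vehicle MOLM-13 cells. The myeloid and leukocyte markers moved with treatment. Of 9 tested, 7 were higher and 1 lower in MV4-11 cells on day 6, beside 33.6% and 28.4% of all tested genes. In MOLM-13 cells 5 were higher and 1 lower, beside 29.3% and 36.5%. ANPEP, counted as higher in both lines, reached 4 only on treated arrays of day 6 and passed the filter only through them. CSF1R went from 9.13 with vehicle to 11.03 with inhibitor in MV4-11 cells and MPO from 11.24 to 13.57 in MOLM-13 cells, while FLT3 went from 12.39 to 11.13 and from 12.06 to 10.01. Their part in the results below was not tested. In RNA from whole cultures, fewer cells of a type and less RNA per cell cannot be told apart. The arrays differed in RNA quality, read as the 3′ minus 5′ log2 difference between the control probe sets for ACTB and GAPDH. This difference was 2.10 to 2.84 in treated MOLM-13 cultures and 0.95 to 1.15 in their vehicle cultures. It was 0.57 to 0.58 in MV4-11 vehicle cultures on day 6, against 0.83, 0.86 and 1.91 in the treated ones, where the high value belongs to replicate 3. That replicate also had the lowest correlation with its group (0.989). All other groups lay between 0.53 and 0.82. A fit with this difference as a covariate is given beside the target genes and the gene lists on day 6. It keeps the 8 group means, so its slope comes only from differences between arrays within a group. These were widest in treated MV4-11 cells on day 6, through replicate 3, and in treated MOLM-13 cells. The fit is thus not separate from leaving out replicate 3. In MOLM-13 cells it carries that slope over a gap between treated and vehicle arrays, so its values there are not a measured correction. Some single genes of the lists are given in MOLM-13 cells without their value in that fit, and should not be read as firmer than those with it.

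A change is called when limma's moderated test, adjusted by the Benjamini-Hochberg method over all 10963 genes tested, gives p under 0.05. Calls were common in these cultures, so each count of target genes is set beside the share of all tested genes that moved the same way. On day 2 in MV4-11 cells, 0 of the 7 tested target genes were called, where 8.83% of all genes were called higher and 3.69% lower. On day 4, GCLC alone was higher and AKR1C2 alone lower, against 25.2% and 21% of all genes. On day 6, NQO1, GCLC and PIR were higher and AKR1C2 lower, 3 and 1 of 7, against 33.6% and 28.4%. In MOLM-13 cells on day 6, 0 target genes were higher and 5 of 7 were lower (NQO1, GCLM, SRXN1, AKR1C2 and PIR), against 29.3% and 36.5%. The median log2 difference of the 7 genes was -0.23 on day 2, -0.21 on day 4, 0.16 on day 6 and -1.10 in MOLM-13 cells, beside 0.02, 0.01, 0.04 and -0.03 over all genes. With the 3′ to 5′ difference as a covariate, 1 of 7 was higher (TXNRD1) and 1 lower (PIR) in MOLM-13 cells, where that fit called 16.9% of all genes higher and 22.7% lower. In MV4-11 cells on day 6 it called 5 higher (GCLM and TXNRD1 in addition) and 1 lower, against 30.9% and 24.6% of all genes. On day 2 it called 0 higher and 1 lower, against 10.5% and 5.26%, and on day 4 it called 1 higher and 3 lower, against 27.3% and 23.8%.

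**Figure D1:**
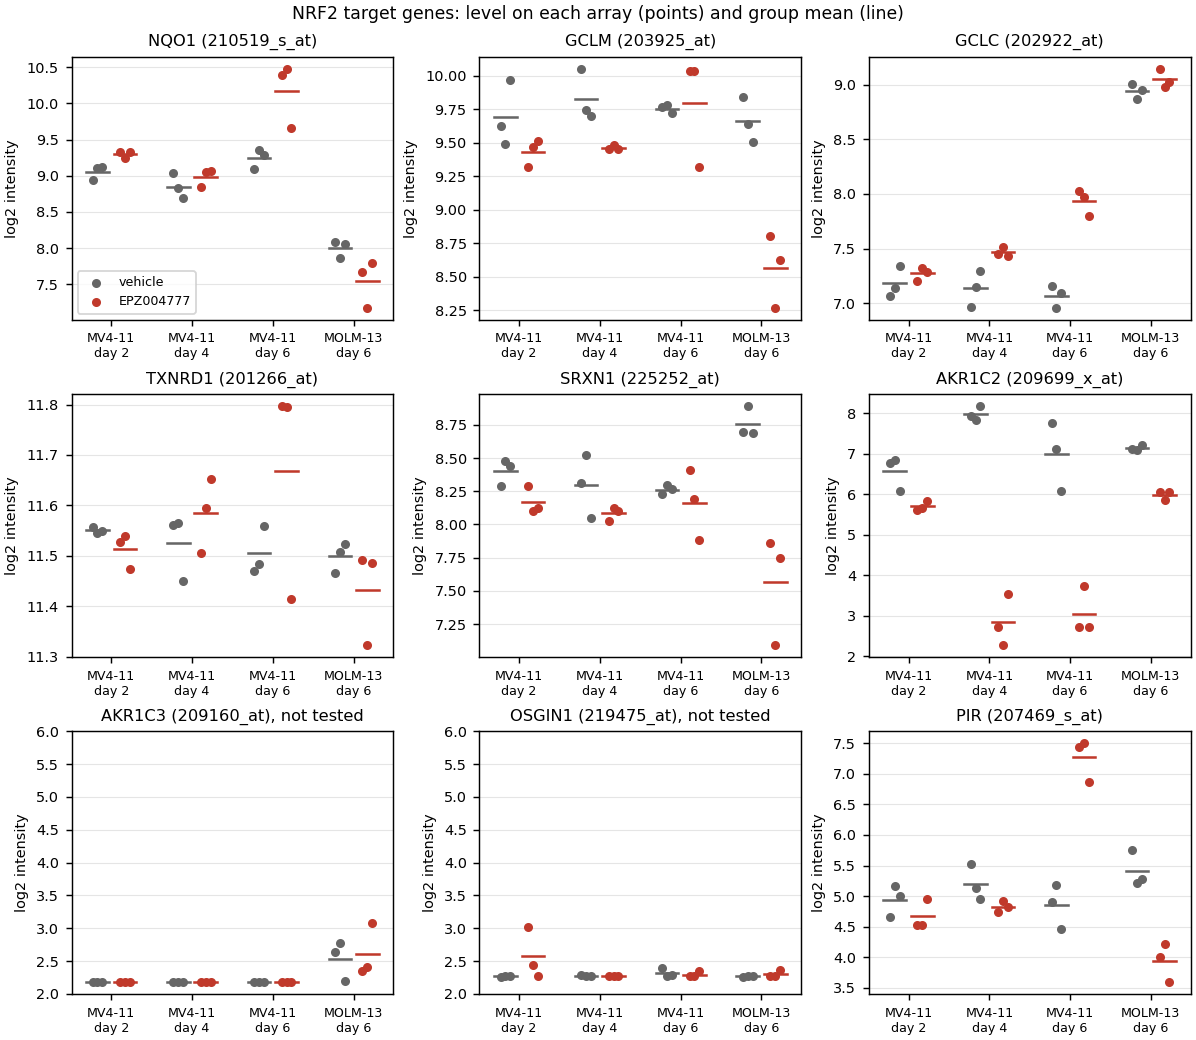
Log2 intensity of the 9 NRF2 target genes on each of the 24 arrays (points) with the mean of each group of 3 (lines), by line, day and treatment, each panel with its own axis. PIR and NQO1 stand above all other groups in treated MV4-11 cells on day 6, AKR1C2 drops to about 3 in treated MV4-11 cells on days 4 and 6, and AKR1C3 and OSGIN1 stay near the lowest value.

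NQO1, the quinone reductase often used as an indicator of NRF2 activity, rose in MV4-11 cells on day 6. Its levels on the treated arrays were 10.39, 10.47 and 9.66, against 9.09, 9.36 and 9.28 on the vehicle arrays. The groups did not overlap, and the lowest treated array was replicate 3, the one with the high 3′ to 5′ difference. The log2 difference was 0.93 ± 0.17 (SE, adjusted p = 8.91e-05), a fold of 1.91, and it was 1.19 without replicate 3. On day 2 the difference was 0.25 ± 0.17 (adjusted p = 0.428) and on day 4 it was 0.14 ± 0.17 (adjusted p = 0.551). Treated MV4-11 cells on day 6 had the highest NQO1 level of the 8 groups, 10.18 ± 0.45, and the 5 other MV4-11 groups followed between 9.30 and 8.85 with each overlapping its neighbour. Vehicle MOLM-13 cultures were lower, between 7.86 and 8.09.

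In MOLM-13 cells NQO1 fell by this probe set, and its other probe sets disagreed. The treated arrays read 7.66, 7.17 and 7.79 and the vehicle arrays 8.09, 7.86 and 8.05, without overlap. The log2 difference was -0.46 ± 0.17 (SE, adjusted p = 0.0229). It was -0.28 without treated replicate 2 (adjusted p = 0.169), the array with the highest 3′ to 5′ difference of the series. It was 0.47 with that difference as a covariate (adjusted p = 0.0595). The probe set 201467_s_at fell by 1.77 in MOLM-13 cells (adjusted p = 7.29e-07), while 201468_s_at rose by 0.48 (adjusted p = 0.000521). On 201468_s_at the treated MOLM-13 arrays read 7.58, 7.35 and 7.49 and the vehicle arrays 7.08, 6.95 and 6.96, so a direction for NQO1 in MOLM-13 cells depends on the probe set read. In MV4-11 cells on day 6 all 3 NQO1 probe sets rose, by 0.93, 1.22 and 1.81.

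GCLC and GCLM encode the catalytic and the modifier subunit of glutamate-cysteine ligase, the rate-limiting enzyme of glutathione synthesis. GCLC rose in MV4-11 cells on days 4 and 6. On day 4 its treated arrays read 7.45, 7.52 and 7.43 and its vehicle arrays 6.97, 7.15 and 7.29. That difference was 0.33 ± 0.09 (SE, adjusted p = 0.00378), a fold of 1.26. On day 6 the treated arrays read 8.03, 7.97 and 7.80 against 7.15, 6.96 and 7.09, a difference of 0.86 ± 0.09 (SE, adjusted p = 5.27e-08) and a fold of 1.82. On day 2 the difference was 0.09 ± 0.09 (adjusted p = 0.588), and the arrays overlapped. The treated groups were thus ordered by day, at 7.27 ± 0.06, 7.47 ± 0.05 and 7.93 ± 0.12, and neither day 4 and day 6 nor day 2 and day 4 overlapped. The 3 MV4-11 vehicle groups, at 7.18, 7.14 and 7.07, overlapped each other. In MOLM-13 cells GCLC was at 8.94 ± 0.07 with vehicle and 9.05 ± 0.08 with inhibitor, above every MV4-11 group, and the difference of 0.11 ± 0.09 was not called (adjusted p = 0.289). A second GCLC probe set, 202923_s_at, rose by 0.32 on day 4, 0.60 on day 6 and 0.29 in MOLM-13 cells, the last with an adjusted p of 0.0363.

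GCLM was read differently by its 3 probe sets in MV4-11 cells on day 6. By the brightest, 203925_at, the treated arrays read 10.04, 10.04 and 9.32 and the vehicle arrays 9.77, 9.78 and 9.72. Replicate 3 lay below all vehicle arrays and the other treated arrays above them, and the difference of 0.04 ± 0.17 was not called (adjusted p = 0.853). By 234986_at the treated arrays read 8.83, 9.12 and 9.26 against a vehicle mean of 7.98 ± 0.02, and this probe set rose by 1.09 ± 0.22 (SE, adjusted p = 0.000225). By 236140_at the difference was 0.67 ± 0.16 (SE, adjusted p = 0.00128), and by the mean of the 3 probe sets it was 0.60 (adjusted p = 0.00079). In MOLM-13 cells all 3 fell: 203925_at from 9.67 ± 0.17 to 8.57 ± 0.28, by -1.10 ± 0.17 (SE, adjusted p = 1.09e-05), 234986_at by -1.34 and 236140_at by -0.40 (adjusted p = 0.0329). With the 3′ to 5′ difference as a covariate the fall of 203925_at was -0.19 (adjusted p = 0.467). On days 2 and 4 in MV4-11 cells the differences by 203925_at were -0.26 ± 0.17 (adjusted p = 0.382) and -0.37 ± 0.17 (adjusted p = 0.0812). On day 4, 236140_at fell by 0.48 (adjusted p = 0.0197).

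**Figure D2:**
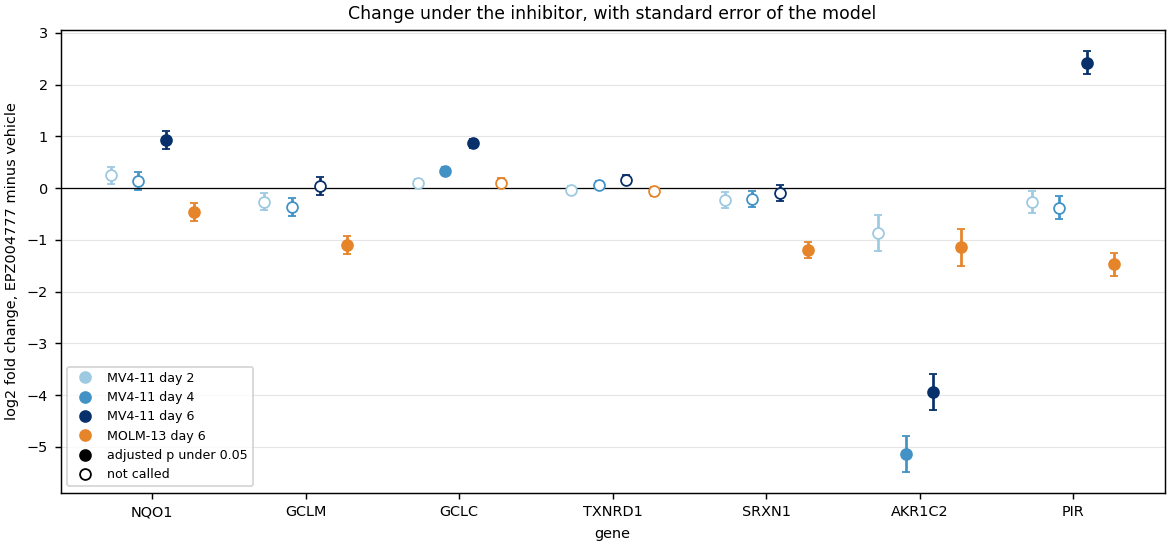
Log2 fold change, inhibitor minus vehicle, of the 7 tested NRF2 target genes in the 4 treatment comparisons, with the SE of the model; filled points have an adjusted p under 0.05. PIR, NQO1 and GCLC are above 0 and AKR1C2 is far below 0 in MV4-11 cells on day 6, while the MOLM-13 values of NQO1, GCLM, SRXN1, AKR1C2 and PIR are below 0.

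TXNRD1, the cytosolic thioredoxin reductase, was nearly level across the series. Its 8 group means lay between 11.43 and 11.67, and every group overlapped the next in order. In MV4-11 cells on day 6 the treated arrays read 11.80, 11.80 and 11.41 and the vehicle arrays 11.47, 11.48 and 11.56. Replicate 3 was again the low array. The difference was 0.16 ± 0.08 (SE, adjusted p = 0.0797), and without replicate 3 it was 0.29 (adjusted p = 0.00032), which is a call. In MOLM-13 cells the difference was -0.07 ± 0.08 (adjusted p = 0.483), and with the 3′ to 5′ difference as a covariate it was 0.36 (adjusted p = 0.00269). Its other probe set, 1561080_at, did not pass the filter.

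SRXN1, sulfiredoxin, which restores over-oxidised peroxiredoxins, fell in MOLM-13 cells. The treated arrays read 7.86, 7.09 and 7.74 and the vehicle arrays 8.70, 8.89 and 8.69, and the groups were well apart. The difference was -1.19 ± 0.16 (SE, adjusted p = 1.77e-06), a fold of 2.29. With the 3′ to 5′ difference as a covariate it was -0.41 (adjusted p = 0.122). In MV4-11 cells the differences were -0.23 ± 0.16 on day 2, -0.21 ± 0.16 on day 4 and -0.10 ± 0.16 on day 6, none called (adjusted p = 0.421, 0.292 and 0.6). SRXN1 has a single probe set here, and its MV4-11 groups ran from 8.40 to 8.08 with each overlapping its neighbour.

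**Figure D3:**
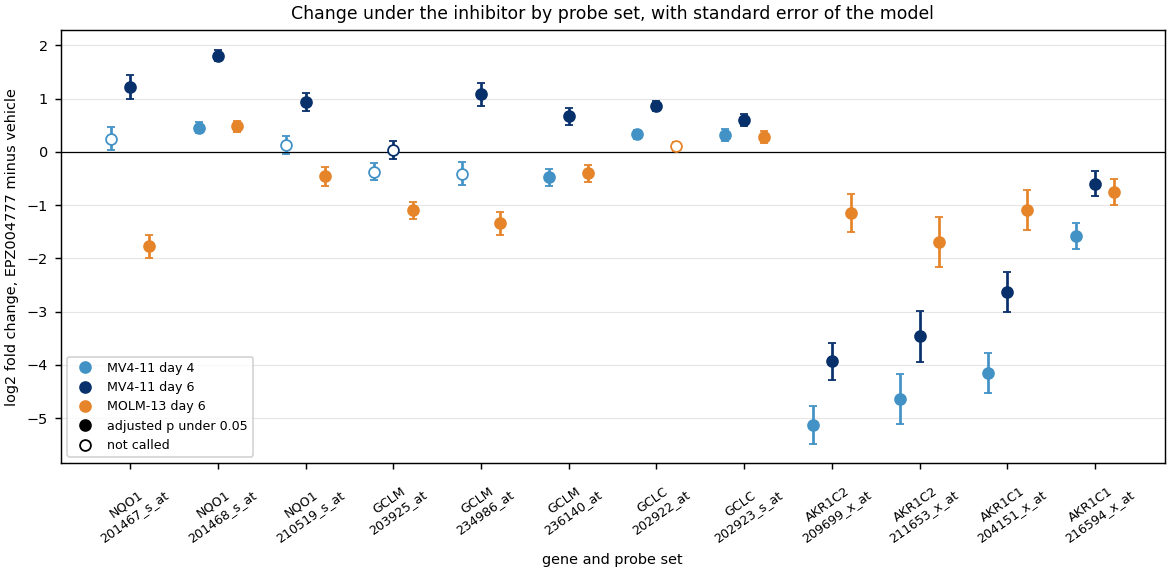
Log2 fold change, inhibitor minus vehicle, by probe set for NQO1, GCLM, GCLC, AKR1C2 and its close relative AKR1C1, in MV4-11 cells on days 4 and 6 and in MOLM-13 cells, with the SE of the model; filled points have an adjusted p under 0.05. The 3 NQO1 probe sets are above 0 in MV4-11 cells on day 6 but lie on both sides of 0 in MOLM-13 cells, and the AKR1C2 and AKR1C1 probe sets are all below 0.

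AKR1C2 and AKR1C3 are aldo-keto reductases that reduce steroids and reactive carbonyls. AKR1C2 was the only tested target gene called lower in MV4-11 cells, on days 4 and 6. On day 4 its treated arrays read 2.72, 2.28 and 3.54, near the lowest value, and its vehicle arrays 7.93, 7.83 and 8.18. The difference was -5.13 ± 0.35 (SE, adjusted p = 4.95e-10). On day 6 the treated arrays read 2.72, 3.73 and 2.72 and the vehicle arrays 7.76, 7.13 and 6.08, a difference of -3.93 ± 0.35 (SE, adjusted p = 1.05e-08). Since the treated levels lie near the lowest value, the size of these falls depends on the background adjustment, and with 16 added to each intensity they were -3.51 and -2.56. On day 2 the treated arrays, 5.60, 5.66 and 5.84, were all below the vehicle arrays, 6.78, 6.85 and 6.08, but the difference of -0.87 ± 0.35 was not called (adjusted p = 0.123). In MOLM-13 cells AKR1C2 fell from 7.14 ± 0.07 to 5.99 ± 0.12, by -1.15 ± 0.35 (SE, adjusted p = 0.00717), and with the 3′ to 5′ difference as a covariate by -0.70 (adjusted p = 0.426).

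AKR1C2 is one of a family whose members are nearly identical in sequence, and probe sets ending in x_at can take up signal from a relative. The second AKR1C2 probe set above the filter, 211653_x_at, fell by 4.65 on day 4, 3.47 on day 6 and 1.70 in MOLM-13 cells. AKR1C1, listed for 204151_x_at, fell by 4.15, 2.63 and 1.09 in the same comparisons, and its brighter probe set 216594_x_at by 1.58, 0.60 and 0.76. All of these were called, and which of the relatives carried the signal cannot be told from these probe sets. The probe set listed for both AKR1C2 and AKR1C1, 1555854_at, and the AKR1C2 probe set 244266_at stayed near the lowest value, with mean levels of 2.19. AKR1C3, by its 1 probe set, was at the lowest value on all 18 MV4-11 arrays and between 2.20 and 3.09 on the MOLM-13 arrays.

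PIR, pirin, an iron-binding nuclear protein, had the largest rise among the target genes. Its treated MV4-11 arrays on day 6 read 7.44, 7.50 and 6.87 and the vehicle arrays 4.90, 5.18 and 4.46. The difference was 2.42 ± 0.22 (SE, adjusted p = 1.31e-08), a fold of 5.37. On days 2 and 4 the treated means lay slightly under the vehicle means, by -0.27 ± 0.22 (adjusted p = 0.522) and -0.38 ± 0.22 (adjusted p = 0.168). In MOLM-13 cells PIR fell from 5.76, 5.21 and 5.27 with vehicle to 4.00, 4.21 and 3.60 with inhibitor, without overlap. That difference was -1.48 ± 0.22 (SE, adjusted p = 7.46e-06), and -1.13 with the 3′ to 5′ difference as a covariate (adjusted p = 0.035). With 16 added to each intensity it was -0.90, since part of the treated levels are low. Apart from treated MV4-11 cells on day 6 and treated MOLM-13 cells, the 6 other groups lay between 5.41 and 4.67, each overlapping its neighbour.

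OSGIN1, an oxidative stress-induced growth inhibitor, stayed between 2.26 and 3.02 on all 24 arrays. Its highest value, 3.02, was on a treated MV4-11 array of day 2, and 13 arrays shared the value 2.27.

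The change of the treatment effect between days was tested directly in MV4-11 cells. The effect on day 6 was above that on day 2 for PIR (2.69 ± 0.31 SE, adjusted p = 1.97e-06), GCLC (0.77 ± 0.12, adjusted p = 6.83e-05) and NQO1 (0.69 ± 0.24, adjusted p = 0.0289), and below it for AKR1C2 (-3.06 ± 0.49, adjusted p = 8.19e-05). These are 3 and 1 of 7, beside 20.9% of all genes above 0 and 18.7% below. The NQO1 difference lost its call without any 1 of 6 of the 12 arrays involved, with adjusted p from 0.0567 to 0.0824. GCLM (0.30 ± 0.24), TXNRD1 (0.20 ± 0.11) and SRXN1 (0.13 ± 0.22) were not called. With the 3′ to 5′ difference as a covariate they were called, at 0.80, 0.44 and 0.56, so that 6 of 7 were above 0 and 1 below, beside 17.2% and 14% of all genes in that fit. Within treated MV4-11 cultures, day 6 was above day 2 for PIR (2.60), NQO1 (0.88) and GCLC (0.66) and below it for AKR1C2 (-2.64), 3 and 1 of 7 beside 29.7% and 26%. Without treated replicate 3 of day 6, GCLM (0.60) and TXNRD1 (0.28) were called here too. With the covariate 6 were higher and 1 lower, beside 25.6% and 21.6% of all genes. The AKR1C2 sizes depend on the background adjustment, since its treated levels on day 6 lie near the lowest value. The labels do not say whether the days are separate cultures.

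In vehicle cultures of MV4-11 cells, 0 of 7 target genes were called between day 2 and day 6, beside 0.784% of all genes higher and 0.337% lower. The day 4 vehicle cultures stood apart from those of days 2 and 6, with 13.4% of all genes higher and 15.2% lower. Of the target genes, AKR1C2 alone was called, 1.20 ± 0.30 higher on day 4 (SE, adjusted p = 0.00582), and 0 were lower. Against the day 2 and day 6 vehicle arrays, the fall of AKR1C2 in treated cells on day 4 was -3.93 (adjusted p = 1.74e-09). In that comparison 1 target gene was higher and 1 lower, beside 29.1% and 28% of all genes.

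In the fit without the 3′ to 5′ covariate, the lines differed in their response on day 6 for 6 of the 7 tested genes. The line difference with that covariate is not given here. With it, PIR was the only target gene still called lower in MOLM-13 cells, as given above. The effect in MOLM-13 cells minus that in MV4-11 cells was -3.90 ± 0.31 for PIR (SE, adjusted p = 5.84e-09), -1.39 ± 0.24 for NQO1 (8.26e-05), -1.14 ± 0.24 for GCLM (0.000518) and -1.09 ± 0.22 for SRXN1 (0.000424). It was -0.76 ± 0.12 for GCLC (adjusted p = 3.97e-05) and 2.79 ± 0.49 for AKR1C2 (adjusted p = 0.000109), and -0.23 ± 0.11 for TXNRD1 was not called (0.0925). These are 5 of 7 below 0 and 1 above, beside 32.7% and 19.3% of all genes. Of all genes called in this difference, 37.2% were above 0, and 55.3% when each array was set to a common median, which moved the median of all genes from -0.10 to 0.06. No target gene changed its call or direction by that scaling here. By the second GCLC probe set the difference was -0.31 (adjusted p = 0.116). The size of the AKR1C2 difference depends on the background adjustment, since its treated MV4-11 arrays read 2.72, 3.73 and 2.72. The probe sets 211653_x_at and 204151_x_at fell more in MV4-11 cells (-3.47 and -2.63) than in MOLM-13 cells (-1.70 and -1.09). The AKR1C1 probe set 216594_x_at did not (-0.60 and -0.76). The lines also differed with vehicle on day 6: MOLM-13 cells had more GCLC (1.88 ± 0.09 SE, adjusted p = 1.79e-13), SRXN1 (0.50 ± 0.16, 0.00972) and PIR (0.57 ± 0.22, 0.0297) and less NQO1 (-1.24 ± 0.17, 2.7e-06). These are 3 and 1 of 7, beside 30.7% of all genes higher and 33% lower. The PIR difference lost its call without MV4-11 vehicle replicate 3 (0.37, adjusted p = 0.171) or MOLM-13 vehicle replicate 1 (0.39, adjusted p = 0.158). Line, medium and the 3′ to 5′ difference of the arrays cannot be told apart in comparisons between lines.

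**Figure D4:**
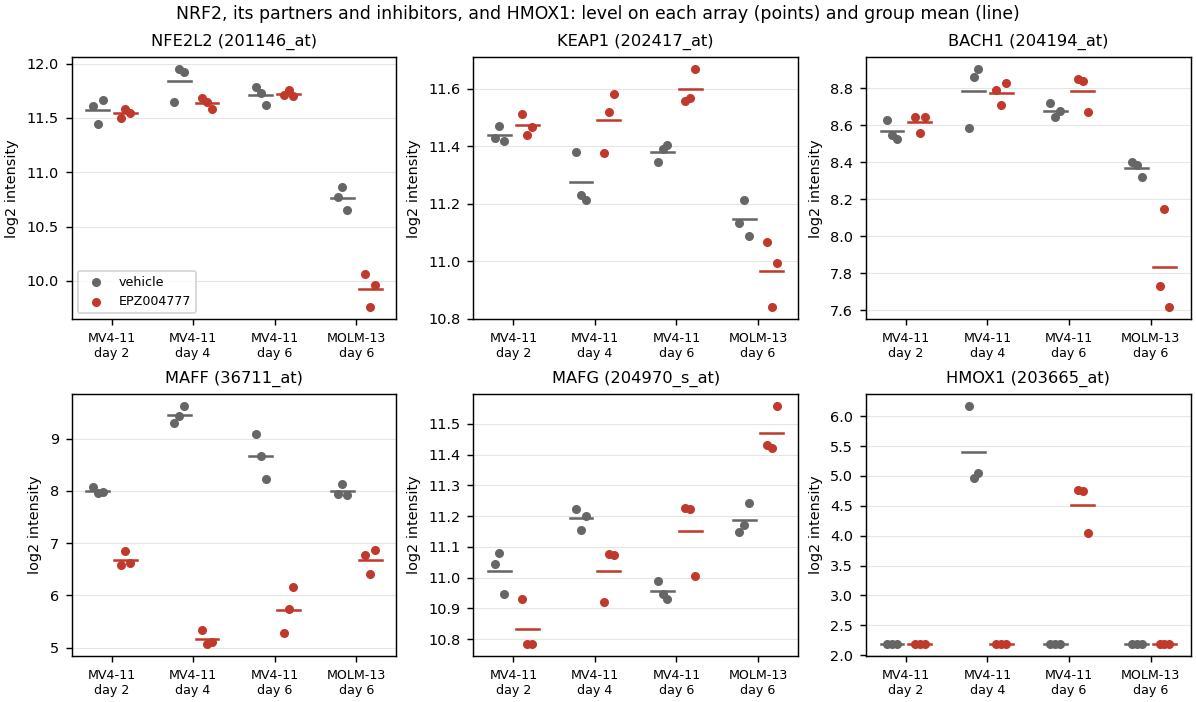
Log2 intensity of NFE2L2 (NRF2), its inhibitor KEAP1, the competing repressor BACH1, the small MAF genes MAFF and MAFG and the target gene HMOX1 on each array (points) with group means (lines), each panel with its own axis. NFE2L2 differs mainly by line and in treated MOLM-13 cells, MAFF is lower with inhibitor in all 4 comparisons, and HMOX1 leaves the lowest value only in vehicle MV4-11 cells on day 4 and treated MV4-11 cells on day 6.

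NFE2L2, which encodes NRF2, did not change in its RNA in MV4-11 cells beyond the threshold. Its differences were -0.03 ± 0.09 on day 2, -0.20 ± 0.09 on day 4 (adjusted p = 0.0627) and 0.01 ± 0.09 on day 6 (adjusted p = 0.952), and that of day 4 was called in 4 of 16 alternatives. In MOLM-13 cells NFE2L2 fell from 10.77, 10.86 and 10.65 to 10.06, 9.76 and 9.96. The fall was -0.84 ± 0.09 (SE, adjusted p = 8.07e-08), and -0.65 with the 3′ to 5′ difference as a covariate (adjusted p = 0.00278). KEAP1 was higher by 0.22 ± 0.07 on both day 4 (adjusted p = 0.0104) and day 6 (adjusted p = 0.00729) in MV4-11 cells and lower by -0.18 ± 0.07 in MOLM-13 cells (adjusted p = 0.0225). The KEAP1 calls are small and ended in 4, 1 and 7 of 16 alternatives, and against the day 2 and day 6 vehicle arrays the day 4 value was 0.08 (adjusted p = 0.229). The MOLM-13 value of KEAP1 with the covariate was -0.14 (adjusted p = 0.393). BACH1 fell in MOLM-13 cells only among the 4 comparisons, by -0.54 ± 0.10 (SE, adjusted p = 0.000123), and its difference between lines was called as well (-0.64, adjusted p = 0.00101). Its values with the covariate are not given here.

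MAFF, a small MAF partner that is itself inducible, fell in all 4 treatment comparisons: by -1.32 ± 0.19 on day 2 (SE, adjusted p = 0.00011), -4.28 on day 4, -2.93 on day 6 and -1.32 in MOLM-13 cells. On day 4 it read 5.34, 5.07 and 5.11 with inhibitor and 9.30, 9.42 and 9.63 with vehicle. These calls held in all 16 alternatives in each of the 4 comparisons. MAFG, another small MAF gene, had smaller differences of -0.19 on day 2 (adjusted p = 0.0734), -0.17 on day 4 (0.0445), 0.19 on day 6 (0.0168) and 0.28 in MOLM-13 cells (0.00108). Against the day 2 and day 6 vehicle arrays the day 4 value of MAFG was 0.03 (adjusted p = 0.665), and with the 3′ to 5′ covariate its day 6 values were 0.29 and 0.50 in the 2 lines. MAFK was not analysed here. HMOX1, heme oxygenase 1 and a classic NRF2 and BACH1 target, was at the lowest value of 2.19 on 18 of the 24 arrays. The other 6 arrays were the day 4 vehicle cultures of MV4-11 cells (6.18, 4.97 and 5.05) and the treated cultures of day 6 (4.77, 4.74 and 4.05). HMOX1 passed the filter only through these arrays. These levels are a description, and no test or fold is given against the lowest value.

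Of 103 other genes of the NRF2 pathway in 8 lists, 78 were tested. In MV4-11 cells 11 were higher and 4 lower on day 2, 25 and 13 on day 4, and 34 and 24 on day 6. In MOLM-13 cells 16 were higher and 40 lower, and in MV4-11 cells against the day 2 and day 6 vehicle arrays the day 4 counts were 27 and 20. With the 3′ to 5′ difference as a covariate the counts on day 6 were 42 and 15 in MV4-11 cells and 12 and 27 in MOLM-13 cells. The shares of all genes given above for each of these fits are the background for these counts. HMOX1 is counted in the day 4 and day 6 values of MV4-11 cells, and without it they were 25 and 12 on day 4 and 33 and 24 on day 6. The median of the 78 genes was 0.06 on days 2 and 4, 0.12 on day 6 and -0.22 in MOLM-13 cells.

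Of 18 tested genes of glutathione synthesis and use, 10 were higher and 3 lower in MV4-11 cells on day 6, and 13 and 3 with the covariate. The glutathione transferases GSTA4 (1.92 ± 0.21 SE), GSTM2 (1.65 ± 0.13) and GSTM1 (1.12 ± 0.08) were higher, with adjusted p of 2.42e-07, 1.58e-09 and 7.08e-10. GSTM1 and GSTM2 have close copies, and several arrays shared the same value of 6.60 for them (6 and 7 arrays). Glutathione reductase, GSR, chosen after its values were seen, was higher in MV4-11 cells on day 6, from 9.56 to 10.33, a difference of 0.78 and of 0.42 with the covariate (adjusted p = 0.00234). In MOLM-13 cells it went from 11.63 to 12.25, but with the covariate the value was -0.14 (adjusted p = 0.526). SLC7A11 and SLC3A2, the subunits of the cystine importer, were lower in MV4-11 cells on day 2, by -1.23 ± 0.31 (adjusted p = 0.0119) and -0.51 ± 0.14 (adjusted p = 0.0209). On day 4 they fell by -3.15 ± 0.31 (adjusted p = 8.08e-08) and -1.39 ± 0.14 (adjusted p = 1.16e-07). Against the day 2 and day 6 vehicle arrays the day 4 falls were -1.34 (adjusted p = 0.000258) and -1.05 (adjusted p = 4.29e-07). The vehicle cultures themselves read 6.47, 8.78 and 7.48 for SLC7A11 on days 2, 4 and 6. SLC7A11 read 5.61, 5.50 and 5.78 with inhibitor and 8.71, 8.61 and 9.03 with vehicle on day 4. On day 6 it was 7.22 with inhibitor and 7.48 with vehicle, and the arrays overlapped. SLC3A2 on day 6 was at 9.65 with inhibitor and 10.64 with vehicle, without overlap. In MOLM-13 cells 1 of the 18 was higher and 5 were lower, and 3 and 4 with the covariate. Among the lower were SLC3A2 (-1.40, with the covariate -0.73) and CHAC2, which degrades glutathione (-1.06).

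**Figure D5:**
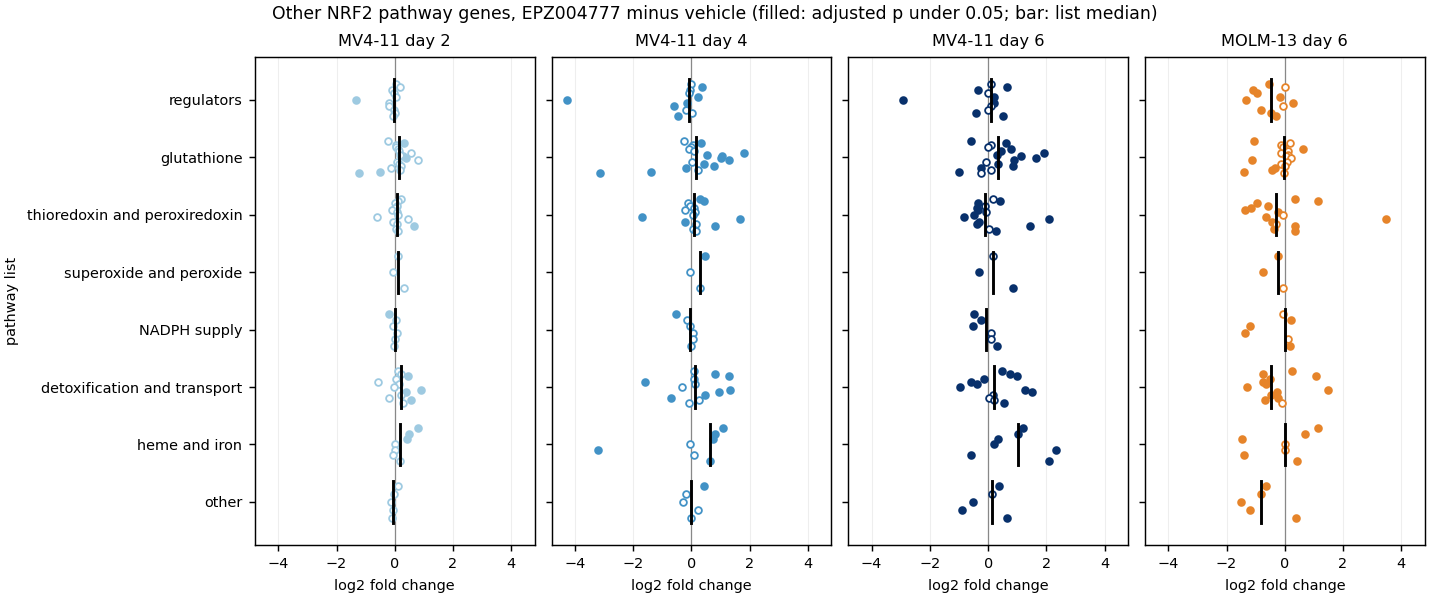
Log2 fold change, inhibitor minus vehicle, of the 78 tested genes in 8 NRF2 pathway lists, 1 panel per comparison; filled points have an adjusted p under 0.05 and the black bar is the list's median. On day 6 in MV4-11 cells the heme and iron list has the highest median, 1.03 with HMOX1 counted and 0.69 without it, and in MOLM-13 cells 40 of the 78 points are called below 0.

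Heme and iron genes were the list with the highest median in MV4-11 cells on day 6, 0.69 without HMOX1 and 1.03 with it (over all genes 0.04). Without HMOX1, 5 of 6 tested genes were higher and 1 lower. HMOX1 passed the filter only through the arrays where it is high, and with it counted 6 of 7 were higher. With the covariate 6 were higher, HMOX1 included, and 0 lower, and HMOX2 was not called (-0.19, adjusted p = 0.124). SLC48A1, a heme transporter, rose by 2.10 ± 0.14 (SE, adjusted p = 1.42e-10), with treated arrays at 8.51, 8.65 and 8.40 against 6.30, 6.25 and 6.70. BLVRB, a biliverdin reductase, rose by 1.03 ± 0.10 (adjusted p = 2.57e-08), and had risen by 0.50 on day 2 and 0.81 on day 4. In MOLM-13 cells 3 of the 7 were higher, among them BLVRA (1.14), and 2 were lower, FECH, the last enzyme of heme synthesis (-1.45), and HMOX2 (-1.41, with the covariate -0.56), and with the covariate 2 were higher and 2 lower.

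Thioredoxin and peroxiredoxin genes were mixed. In MV4-11 cells on day 6, 4 of 15 tested genes were higher and 7 lower, and in MOLM-13 cells 5 were higher and 8 lower. With the covariate the counts were 4 and 3 in MV4-11 cells and 4 and 7 in MOLM-13 cells. Without treated replicate 3 they were 3 and 5 in MV4-11 cells, a fit whose share of all genes called is not given here. In MV4-11 cells TXNIP, which inhibits thioredoxin, rose by 0.66, 0.80 and 1.43 on days 2, 4 and 6. Its day 4 value was 1.43 against the day 2 and day 6 vehicle arrays. SESN3, a sestrin, rose by 1.65 on day 4, 2.11 on day 6 and 3.47 in MOLM-13 cells. The other sestrins fell in MV4-11 cells, SESN2 by -1.69 on day 4 (adjusted p = 1.07e-05) and SESN1 by -0.49 on day 6 (adjusted p = 7.67e-06). SESN2 in vehicle cultures was at 7.57, 8.75 and 7.87 on days 2, 4 and 6. PRDX3, the mitochondrial peroxiredoxin, fell in MOLM-13 cells by -1.17 ± 0.09 (adjusted p = 7.27e-10), and by -0.76 with the 3′ to 5′ difference as a covariate.

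The detoxification and transport list had 6 of 13 higher and 4 lower in MV4-11 cells on day 6, led by EPHX1, microsomal epoxide hydrolase (1.51 ± 0.11, adjusted p = 1.07e-09). In MOLM-13 cells 3 were higher and 9 lower, with the carbonyl reductase CBR1 at -1.29 (-0.52 with the covariate) and the exporter ABCC5 at 1.09. With the covariate this list had 8 higher and 1 lower in MV4-11 cells and 2 and 2 in MOLM-13 cells. Without treated replicate 3 it had 8 and 2 in MV4-11 cells, again without a share of all genes for that fit. NADPH supply genes had 1 of 6 higher and 3 lower in MV4-11 cells on day 6 and 2 and 2 in MOLM-13 cells, and with the covariate 2 and 3, and 0 and 1. PGD, of the pentose phosphate pathway, fell in MOLM-13 cells by -1.36 ± 0.20 (adjusted p = 7e-06), but with the 3′ to 5′ difference as a covariate the value was -0.14 (adjusted p = 0.542). Of the superoxide and peroxide genes, SOD2 rose (0.87, with the covariate 0.50) and SOD1 fell (-0.31, with the covariate -0.20) in MV4-11 cells on day 6, and SOD1 fell by -0.77 in MOLM-13 cells. With the covariate this list of 3 had 2 higher and 1 lower in MV4-11 cells and 0 and 2 in MOLM-13 cells. The regulator list had 4 of 11 higher and 3 lower in MV4-11 cells on day 6 and 1 and 8 in MOLM-13 cells, where CUL3 fell by -1.08 ± 0.06 (adjusted p = 1.24e-11). With the covariate its counts were 5 and 3, and 1 and 6. Of the remaining genes listed, 2 of 5 were higher and 2 lower in MV4-11 cells on day 6, and 1 and 4 in MOLM-13 cells, with the ubiquitin ligase TRIM16 at -1.49 (-0.55 with the covariate). With the covariate those counts were 2 and 1, and 0 and 3.

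Across the 8 group means, the target genes did not follow 1 profile. The group means of TXNRD1 and PIR had a Pearson correlation of 0.85, those of NQO1 and TXNRD1 0.84, and those of GCLM and SRXN1 0.79. NQO1 and GCLC were at -0.68, with GCLC high and NQO1 low in MOLM-13 cells. These values describe 8 points that share arrays and lines, and no test is attached to them. The genes most like each target over the 8 group means were SLC39A6, PLS3 and KIAA1191 for NQO1 (0.99 to 0.98), RYK, TNN and CHST13 for GCLC (0.995 to 0.994) and LYRM1, MAD1L1 and RNF11 for GCLM (0.98 to 0.97). For SRXN1 they were GCSH, PPP2CB and CDK7 (0.96 to 0.95), for AKR1C2 they were ANKRD37, MVD and FDPS (0.98), and for PIR they were DACT3, HLA-F-AS1 and IGLC1 (0.93 to 0.89). TXNRD1 matched TMEM191A, MARK4 and ORMDL3 (0.98 to 0.97), but its own group means span only 0.24 on the log2 scale.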

How the data were processed

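The authors deposited an intensity for each of 54675 probe sets on each array, made with GCRMA per the submitters' processing notes (version not given in the sources used here). GCRMA corrects background from probe sequence, normalizes by quantiles and summarizes probes. Log2 values were planned for, but the intensities were linear (4.551 to 71593), so log2 was taken, with a pseudocount of 0. Of these probe sets, 41091 had 1 gene symbol, 1801 several and 11721 none, and 62 were controls. A gene was tested when its brightest probe set reached log2 4 on 3 or more arrays (10963 genes). Group means over all 24 arrays were fitted for 10 comparisons by lmFit and eBayes of limma 3.58.1, run in R 4.3.3, with two-sided tests. The labels do not say how replicates were made, so p-values measure the spread between these arrays. With 3 arrays a group, the smallest exact p is 0.1. The number of arrays limits precision. The genes and pathway lists were chosen with earlier results of these data known. All target genes are named, and up to 3 called genes a list by adjusted p are eligible to be named. Steps were tested on simulated data. Python 3.11.15 and matplotlib 3.10.9 did the rest. Alternatives were other filters, a pseudocount of 16, another variance prior, other probe sets, scalings, the 3′ to 5′ covariate, the comparison's own arrays, a replicate block, a 2-fold minimum and leaving out each array. Reading the pathway genes on day 4 against the day 2 and day 6 vehicle arrays, and leaving out genes at the lowest value, were alternatives chosen after seeing the data.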

Additional observations from a re-analysis of the deposited data

Results flagged for a closer look

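The results below are flagged because the effect of the inhibitor differed between days or between lines by a test of the difference itself (limma, adjusted over all genes). In MV4-11 cells the effect on day 6 minus that on day 2 was 0.69 for NQO1, 0.77 for GCLC, -3.06 for AKR1C2 and 2.69 for PIR. Among the regulators it was -1.62 for MAFF and 0.38 for MAFG.

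On day 6 the effect in MOLM-13 cells minus that in MV4-11 cells was -1.39 for NQO1, -1.14 for GCLM, -0.76 for GCLC, -1.09 for SRXN1, 2.79 for AKR1C2 and -3.90 for PIR. It was -0.84 for NFE2L2, -0.40 for KEAP1, -0.64 for BACH1 and 1.61 for MAFF. These values are from the fit without the 3′ to 5′ covariate. AKR1C2 lay near the lowest value in treated MV4-11 cells on day 6, so the sizes of its differences depend on the background adjustment. The treated MOLM-13 arrays had a 3′ minus 5′ difference of 2.10 to 2.84 and the treated MV4-11 arrays of 0.83 to 1.91, and line, medium and this difference cannot be told apart here.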

How the results depend on the processing

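Where the probe set of 1 gene was exchanged, the other target genes were counted too, although their own readings were unchanged. The share of values that kept their result is therefore not a measure of robustness. Of 1962 values of single target genes under alternatives, 1886 kept their direction and side of the threshold, or changed direction while not called in either fit (32 of them). A further 33 lost a call, 38 gained one and 5 turned direction. Those 5 are NQO1 in MOLM-13 cells with the 3′ to 5′ covariate (0.47) and by probe set 201468_s_at (0.48), and with the covariate TXNRD1 in MOLM-13 cells (0.36), SRXN1 between days 2 and 6 of treated MV4-11 cells (0.37, adjusted p = 0.0326) and TXNRD1 between vehicle lines (0.16, adjusted p = 0.0164). The number of target genes called with that covariate was 1 on day 2, 4 on day 4, 2 in MOLM-13 cells, and 7 for both the day 6 minus day 2 effect and the treated cells over time, to be read beside the shares of all genes given for that fit. With a 2-fold minimum it was 1 on day 4 and 2 on day 6. It was also 2 for the effect between days, for treated cells over time and between vehicle lines. Of all 10963 tested genes, that minimum kept 768 on day 4 and 1278 on day 6. It kept 767 for the effect between days, 795 for treated cells over time and 1862 between vehicle lines. With only the comparison's own arrays, 1 target gene was called on day 2 and 2 for the day 4 vehicle cultures. With the mean of probe sets 1 was called on day 2. The shares of all genes called in these other fits are not given here, so their counts have no background. Reading another probe set gave 1 on day 4 with GCLC by 1555330_at or AKR1C2 by 1555854_at or 244266_at. None of these probe sets passed the filter, so the gene was then not tested. For the day 4 vehicle cultures it gave 2 (NQO1 by 201467_s_at) or 0 (AKR1C2 by the same pair, not passing the filter). The call of NQO1 in MOLM-13 cells was lost with no filter (adjusted p = 0.0541), a common median (0.0542) and the comparison's own arrays (0.0582), and without vehicle replicate 1 (0.0711) or 3 (0.0598).

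Leaving out each array in turn gave 0 calls on day 2, 2 on day 4, 4 to 5 on day 6 and 4 to 5 in MOLM-13 cells. It gave 3 to 6 for the effect between days, 6 to 7 between lines and 1 for the day 4 vehicle cultures. For vehicle cells over time it gave 0, for treated cells over time 4 to 6 and between vehicle lines 3 to 4. The shares of all genes called without each array are not given here, so these counts have no background. No pairing by replicate number was seen: 12 same-numbered pairs had correlations of -0.262 to 0.096, with 0 over 0.1. Pairs with different numbers ranged from -0.244 to 0.283. With 3 arrays a group these correlations cannot decide whether the samples were paired. With the replicate block the counts were 0, 2, 4 and 5 in the 4 treatment comparisons, as without it. Levels near 2.19 limit what can be measured for AKR1C2, AKR1C3, OSGIN1 and HMOX1.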
